A study of Drosophila melanogaster with 8 samples.

Results

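The glial genes alrm, Gs2, Mdr65 and e (ebony) were followed in head RNA of drug-treated flies. These 4 genes, found by name, took up 12 of the array's 27648 rows and stood among 6793 named genes. They were chosen by their p values on these same arrays: in an earlier analysis alrm and Gs2 had the smallest p among glial markers on day 14, and Mdr65 and e had the smallest on day 10. Their values on the day that chose them are therefore given as descriptions without a test. In the fit used here, the glial marker Oatp58Db ranked before e by p on day 10.

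The heads came from unmated adult males of the wild-type strain Oregon R of Drosophila melanogaster. In the day 14 group (n = 4 arrays), flies ate food with pentylenetetrazole for 7 days, food with sodium valproate for 3 days and normal food for 4 days. In the day 10 group (n = 4 arrays), heads were taken at the end of the 3 days of valproate, with no return to normal food. Pentylenetetrazole provokes seizures by blocking GABA-A receptors. Sodium valproate is used against epilepsy and is also an inhibitor of histone deacetylases. Each array set RNA from pooled heads of treated flies against RNA of parallel flies on normal food for the same time, so every value is treated over control. None of the arrays analysed here had pentylenetetrazole alone or valproate alone. The doses are uncertain: pentylenetetrazole is put at 8 mg/ml in the labels and 0.33 mg/ml in the series text, and valproate at 0.33 mg/ml and 24 mg/ml. Arrays of a group are biological replicates, per the series text.

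Glia surround, feed and insulate neurons and remove transmitter after release. Astrocyte-like glia reach into the neuropil and take up glutamate and GABA, and alrm, which encodes a leucine-rich repeat protein, is widely used as their marker. Glutamine synthetase, the product of Gs2, turns glutamate taken up by glia into glutamine. Mdr65 is a P-glycoprotein-like ABC transporter of the subperineurial glia, which form the blood-brain barrier, and it pumps drugs and other foreign compounds out of the brain. Ebony joins beta-alanine to histamine or dopamine, which inactivates histamine released by photoreceptors in the lamina. It also acts outside the nervous system, in the tanning of cuticle.

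Values are log2 ratios, so that -1 stands for a level halved in treated heads, and each array was centred on its median. Of the arrays in each group, 2 carried treated RNA on Cy5 (replicates 1 and 2) and 2 on Cy3 (replicates 3 and 4). The sign of replicates 3 and 4 was turned, because the medians of print blocks correlated above 0 between arrays of opposite dye in all 8 pairs of arrays within a day. Each pair was read both ways, with named spots of one array set against unnamed spots of the other as deposited, and the 16 correlations over 48 blocks ran from 0.24 to 0.84. No source states whether replicates 3 and 4 had been turned before deposit, so the turning rests on this pattern alone. The labels make Cy5 over Cy3 the likely reading of a deposited ratio, but no source states it, and the opposite reading turns every sign below. A spot had a value only if it passed the authors' filters: named spots had values in 52.5% of cases on day 14 arrays and 76.4% on day 10 arrays. Ratios carry no level of a gene, so the cell types of the heads could not be checked from them, and fewer glial cells cannot be told apart from less RNA per cell.

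alrm was lower in treated heads on every day 14 array that measured it. Its log2 ratios on day 14 were -0.64, -0.73 and -0.34 on replicates 1, 2 and 3, and replicate 4 had no value. On day 10 they were -0.80, 0.13, -0.15 and 0.15 on replicates 1 to 4. The day 14 arrays all lay below 0. Day 10 was split, with 2 arrays on each side of 0 and replicate 1 lower than any day 14 array, so the days overlapped. On both days alrm was lower with treated RNA on Cy5. Its day 14 means were -0.68 on Cy5 and -0.34 on Cy3 (replicate 3 only), and its day 10 means were -0.335 and -0.001. The mean was -0.57 ± 0.20 (SD, n = 3) on day 14 and -0.17 ± 0.44 (SD, n = 4) on day 10. The limma fit, which adds a dye term, put alrm at -0.51 ± 0.19 (SE) on day 14, 1.43-fold lower. On day 10, which had not been used to choose the gene, the fitted value was -0.17 ± 0.17 (SE, n = 4, limma, adjusted p = 0.79). Without day 10 replicate 1 it was 0.025. On day 14 the fitted value was -0.24 if dye-swapped arrays were not turned. A value below 0 on all 3 arrays was shared by 11.3% of features with values on 3 day 14 arrays.

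**Figure D1:**
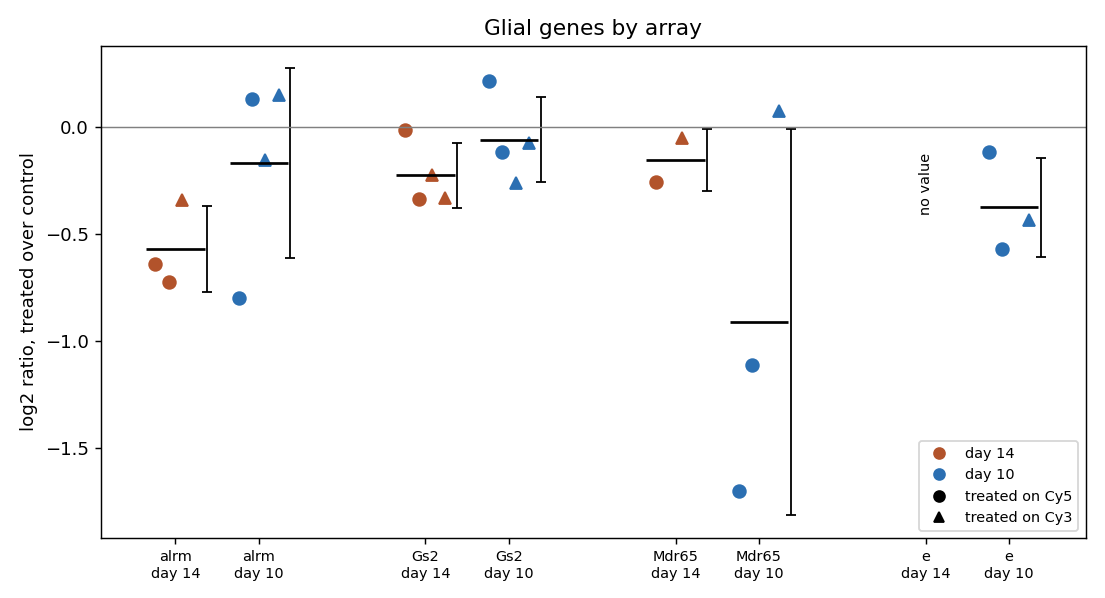
Log2 ratio of treated over control RNA (vertical axis) for each gene on each array of day 14 and day 10; circles are arrays with treated RNA on Cy5, triangles those on Cy3, horizontal lines means and bars SDs. The 3 alrm values of day 14 lie between -0.73 and -0.34, those of Mdr65 on day 10 spread from -1.70 to 0.07, and e has no value on day 14.

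Gs2 was the only one of the 4 with a value on all 8 arrays. Its ratios on day 14 were -0.01, -0.34, -0.22 and -0.33 on replicates 1 to 4, all below 0 though replicate 1 lay almost at 0. On day 10 they were 0.22, -0.12, -0.26 and -0.08, with only replicate 1 above 0, and the days overlapped. The mean was -0.23 ± 0.15 (SD, n = 4) on day 14, 1.17-fold lower, against -0.06 ± 0.20 (SD, n = 4) on day 10. The day 10 value did not pass (limma fit -0.06 ± 0.13 SE, n = 4, adjusted p = 0.90). All 4 arrays lay below 0 for 8.87% of features with values on 4 day 14 arrays. The sign of Gs2 rests on the turning of the dye-swapped arrays: had these not been turned, the fitted values would be 0.051 on day 14 and 0.11 on day 10. Without day 14 replicate 2 the day 14 value was -0.15.

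Mdr65 had the lowest single values of the 4, on day 10. Its ratios there were -1.70 and -1.11 on replicates 1 and 2 and 0.07 on replicate 4, with no value on replicate 3. On day 14 it had a value on only 2 arrays, -0.26 on replicate 1 and -0.05 on replicate 3, which both lay inside the day 10 range. The low day 10 values were both from arrays with treated RNA on Cy5 (mean -1.41), and the single array with treated RNA on Cy3 lay near 0. The day 10 mean was -0.91 ± 0.90 (SD, n = 3) and the limma fit -0.76 ± 0.26 (SE), 1.69-fold lower. The fit gave Mdr65 a dye term of -0.47, larger in size than that of 85.4% of 11789 features. Without replicate 4 the day 10 value was -1.30, and with arrays scaled to one spread it was -0.45. With 2 arrays, day 14 fell under the minimum of 3 arrays and was not tested.

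e was measured only on day 10. Its ratios were -0.12, -0.57 and -0.43 on replicates 1, 2 and 4, all below 0, with no value on replicate 3. The mean was -0.37 ± 0.23 (SD, n = 3) and the limma fit -0.39 ± 0.21 (SE), 1.31-fold lower. Both dye orientations gave like values, -0.34 with treated RNA on Cy5 (2 arrays) and -0.43 on Cy3 (1 array). With swapped arrays not turned the fitted value was 0.045. Among features with values on 3 day 10 arrays, 13.2% lay below 0 on all of them. Relative to the median of its print block, e was at 0.19, -0.42 and -0.49 on those arrays, so replicate 1 changed sides. None of its 4 spots kept a value on any of the day 14 arrays. Of the 1857 named genes with values on 3 day 10 arrays, 26.4% likewise had none on day 14, and a missing value gives no level.

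The spots behind these values agreed to different degrees. Adjacent rows were duplicate spots, and over all such pairs naming a gene the median difference on an array was 0.137 to 0.248 in log2 units. The Gs2 pair differed by a median of 0.0555 and exceeded its array's median on 1 of 8 arrays. The alrm pair differed by a median of 0.249 and exceeded it on 5 of 7 arrays. On day 10 replicate 1 the alrm spots read -0.62 and -0.97, and on day 10 replicate 2 they read -0.06 and 0.32, on opposite sides of 0. Mdr65 had 4 spots, of which the second pair gave 1 value in all (-0.99 on day 10 replicate 2), close to the -1.30 and -1.04 of the first pair on that array. The first Mdr65 pair read -1.38 and -2.01 on day 10 replicate 1, the widest gap of any of the 23 pairs. e also had 4 spots, and 2 of them had no value on any array.

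**Figure D2:**
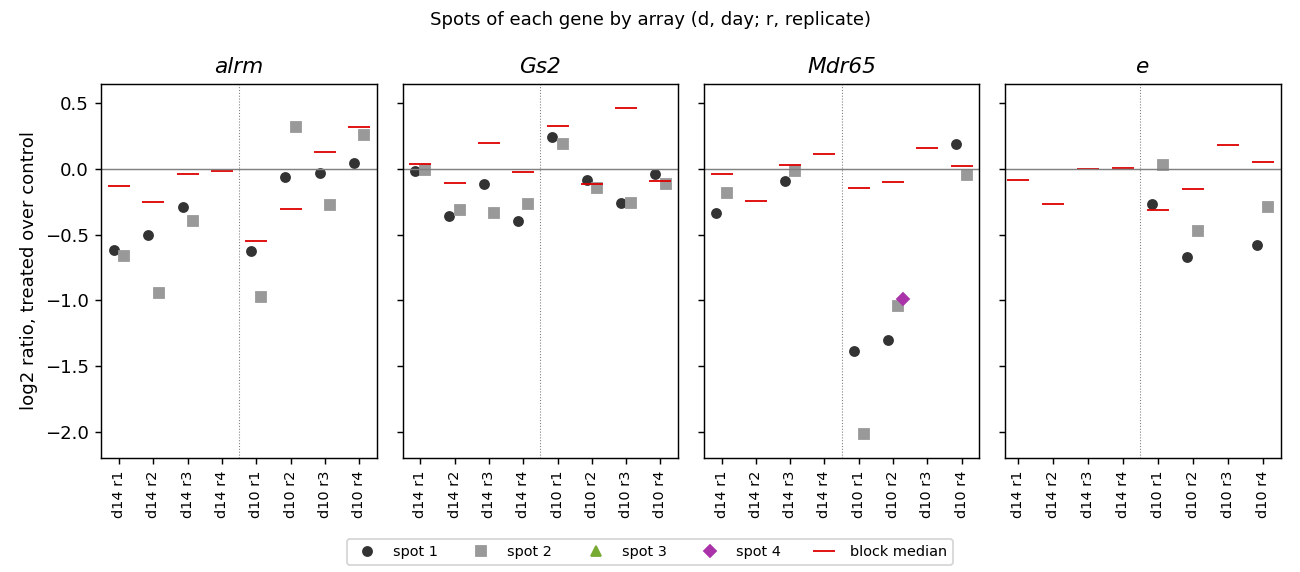
Log2 ratio of treated over control RNA (vertical axis) for every spot of each gene on each array, day 14 left of the dotted line; short red bars are the median of the print block that holds the first spot. The 2 spots of Gs2 lie within 0.218 of each other on every array, and those of Mdr65 are widest apart on day 10 replicate 1.

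Position on the slide was set beside each value, since print blocks carried a pattern. The block of alrm had medians of -0.13, -0.25 and -0.04 on day 14 replicates 1 to 3, in the same direction as the gene but smaller. On day 10 replicate 1 that block stood at -0.55, beside -0.80 for alrm. Relative to its block, alrm averaged -0.43 ± 0.11 (SD, n = 3) on day 14 and -0.07 ± 0.34 (SD, n = 4) on day 10. Gs2 averaged -0.25 ± 0.15 on day 14 and -0.21 ± 0.35 on day 10 (SD, n = 4 each), so its day 10 value came closer to day 14. Mdr65 averaged -0.15 ± 0.10 (SD, n = 2) on day 14 and -0.84 ± 0.82 (SD, n = 3) on day 10.

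**Figure D3:**
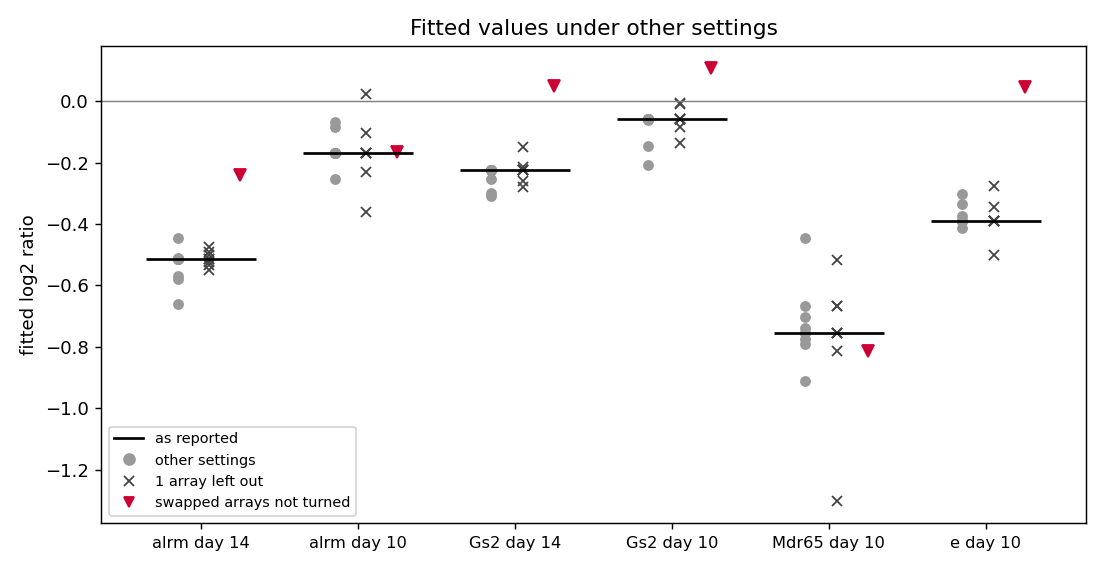
Fitted log2 ratio (vertical axis) of each gene and day that reached 3 arrays, as reported (line), with 1 array left out (crosses), with swapped arrays not turned (red) and under the other settings (grey). alrm on day 14 and Mdr65 on day 10 stay below 0 throughout, while Gs2 and e reach 0.051, 0.11 and 0.045 when swapped arrays are not turned. That setting checks the sign of alrm and Mdr65 only weakly. With the dye term, an unturned value largely follows the gap between arrays with treated RNA on Cy5 and on Cy3. As turned, alrm on day 14 had means of -0.68 on Cy5 and -0.34 on Cy3. Mdr65 on day 10 had means of -1.41 on Cy5 and 0.07 on Cy3.

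Between the days, alrm and Gs2 could be compared. The fitted day 14 minus day 10 difference was -0.34 ± 0.25 (SE) for alrm and -0.17 ± 0.18 (SE) for Gs2, with no test, since one of the days chose them. For alrm it was -0.11 without day 10 replicate 2 and -0.58 without day 10 replicate 1, and for Gs2 it was -0.09 without day 10 replicate 1 or without day 14 replicate 2. With swapped arrays not turned it was -0.072 for alrm and -0.059 for Gs2, and with print blocks centred it was -0.38 for alrm and -0.046 for Gs2. For Mdr65, the mean of the arrays with treated RNA on Cy5 was -0.26 on day 14 (1 array) and -1.41 on day 10 (2 arrays). On Cy3 it was -0.05 on day 14 and 0.07 on day 10 (1 array each). The 2 spots with a value on that day 10 array read 0.19 and -0.05, so the Cy3 arrays gave no clear order of the days.

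Over all features, limma called 0 of 7529 on day 14 (0%), 0 of 11509 on day 10 (0%) and 0 of 6419 in the difference (0%). Unadjusted p lay under 0.05 for 3.98%, 6.67% and 6.26% of them. The 2 values that could be tested for the 4 genes, alrm and Gs2 on day 10, were likewise not called.

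None of the other glial genes passed the test. Of 28 glial markers listed, 17 were on the array, and beside the 4 genes 7 could be tested on day 14 and 12 on day 10. On day 14, 6 of these 7 lay below 0, with a median of -0.15, against 50.7% of all features and a median of 0.00. Eaat2, Inx2 and zyd were low only with treated RNA on Cy5 (means -0.35, -0.54 and -0.38). On Cy3 they were at 0.002, 0.10 and 0.03. drpr was low only on Cy3 (-0.20, against 0.16 on Cy5), while Gli and speck were below 0 in both orientations. On day 10, 7 of 12 lay below 0, with a median of -0.05, against 43.5% and a median of 0.04. limma called 0 on either day. Unadjusted p lay under 0.05 for 0 of 7 on day 14 (3.98% of all features) and 1 of 12 on day 10 (6.67%). That one was Oatp58Db, an organic anion transporter of the blood-brain barrier, at -0.48 ± 0.18 (SE, n = 3, limma, adjusted p = 0.73) and below 0 on all 3 arrays. Its 2 day 14 values were both above 0, with a mean of 0.30.

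Next to alrm and Gs2 on day 14 stood the transporter gene Eaat2 at -0.17 ± 0.13 and the gap junction gene Inx2 at -0.22 ± 0.16 (SE, n = 4 each), of which 3 and 2 arrays lay below 0. zyd, an exchanger gene of cortex glia, was at -0.18 ± 0.14, Gli, a junction protein gene, at -0.15 ± 0.15, and speck, an arylalkylamine N-acetyltransferase gene, at -0.11 ± 0.14 (SE, n = 4 each). The engulfment receptor gene drpr was at -0.02 ± 0.15 and the trehalose transporter gene Tret1-1 at 0.01 ± 0.13 (SE, n = 4 each). On day 10, moody, a receptor gene needed for the barrier, was at -0.21 ± 0.14, zyd at -0.16 ± 0.15, Gli at -0.09 ± 0.16, Tret1-1 at -0.09 ± 0.13, Inx2 at -0.08 ± 0.17 and speck at -0.01 ± 0.15 (SE, n = 4 each). moody, zyd and Gli each had 2 arrays below 0 and 2 above, split by dye. Their means were -0.64, -0.58 and -0.37 with treated RNA on Cy5 and 0.22, 0.27 and 0.18 on Cy3. speck split the other way, at 0.31 on Cy5 and -0.33 on Cy3. Higher fitted values on day 10 belonged to loco, a regulator of G-protein signalling, at 0.27 ± 0.20 (SE, n = 4), Eaat2 at 0.26 ± 0.15 (SE, n = 3) and the sodium pump subunit gene nrv2 at 0.24 ± 0.18 (SE, n = 4), which lay above 0 on 3 arrays each. wrapper was fitted at 0.22 ± 0.28 (SE, n = 4) but lay below 0 on 3 of 4 arrays, with 1 array at 1.40. The GABA transporter gene Gat was fitted at 0.01 ± 0.19 (SE, n = 3) and lay below 0 on 2 of 3 arrays, with a mean of -0.11.

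Some glial genes had values on too few arrays for a test, and these included low ones. drpr on day 10 was at -1.17 on replicate 2 and -1.02 on replicate 4, which had opposite dye orientations. Its day 10 mean of -1.09 was lower than that of any other glial gene on either day. moody on day 14 was at -0.48 on replicate 3 and -0.54 on replicate 4, both with treated RNA on Cy3. On day 14 Gat was at -0.90 on its single array and nrv2 at -0.28 on its single array, and loco had a mean of 0.05 on 2 arrays.

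**Figure D4:**
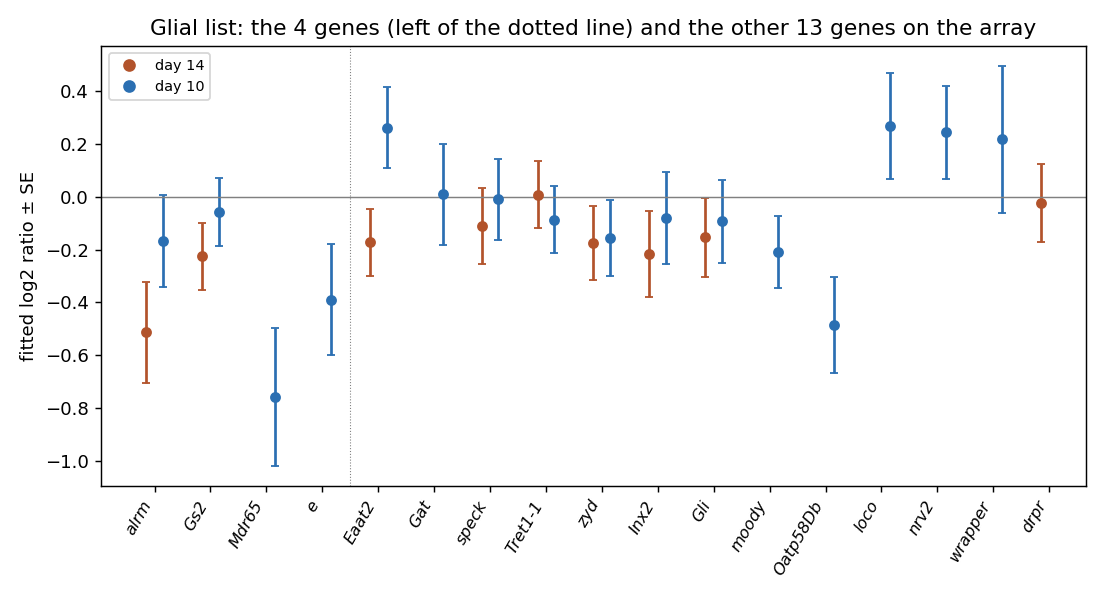
Fitted log2 ratio of treated over control RNA with its standard error (vertical axis) for the 17 glial genes on the array, day 14 left of day 10 for each gene; a gene with fewer than 3 arrays on a day has no point. Among the genes with points, alrm is lowest on day 14 at -0.51 and Mdr65 on day 10 at -0.76.

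Among genes of glutamate and GABA recycling, the partners of Gs2, 4 others could be tested on day 14 and 7 on day 10. On day 14, 3 of 4 lay below 0 (50.7% of all features) with a median of -0.03. On day 10, 1 of 7 lay below 0 (43.5% of all features) with a median of 0.14. The mitochondrial glutamine synthetase gene Gs1 stood at -0.02 ± 0.15 on day 14 and 0.29 ± 0.16 on day 10 (SE, n = 4 each). The glutamate dehydrogenase gene Gdh stood at -0.03 ± 0.20 on day 14 and 0.27 ± 0.22 on day 10, and the GABA-synthesising enzyme gene Gad1 at 0.03 ± 0.14 and 0.14 ± 0.14 on the same days (SE, n = 4 each). In the difference, these 3 and Eaat2 were all lower on day 14, with a median of -0.31, where 54.6% of all features were lower with a median of -0.03. Eaat2 had the largest difference among them, -0.43 ± 0.20 (SE, limma, adjusted p = 0.77), and 0 of the 4 were called or had an unadjusted p under 0.05.

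For Mdr65, the related lists were ABC transporters and genes of the barrier and septate junctions. On day 14, 2 of 5 other ABC transporter genes lay below 0 (50.7% of all features), with a median of 0.07. On day 10, 7 of 8 lay below 0 (43.5% of all features), with a median of -0.22. The ABC transporter gene Atet was at -0.23 ± 0.15 (n = 3) on day 14 and -0.35 ± 0.13 (n = 4, adjusted p = 0.73) on day 10, and Mrp4 at -0.53 ± 0.23 (n = 3, adjusted p = 0.73) on day 10 (SE, limma). Mdr49, another P-glycoprotein-like gene, was at 0.21 ± 0.14 (SE, n = 4) on day 10. Of these other ABC transporter genes limma called 0 on either day. Unadjusted p lay under 0.05 for 0 of 5 on day 14 (3.98% of all features) and for 1 of 8, Atet, on day 10 (6.67%). Barrier and septate junction genes other than Mdr65 lay below 0 in 2 of 9 cases on day 14 (median 0.06) and 8 of 15 on day 10 (median -0.02). Over all features 50.7% and 43.5% did so on the same days. limma called 0 of these barrier genes. Unadjusted p lay under 0.05 for 0 of 9 on day 14 (3.98% of all features) and for 1 of 15, Oatp58Db, on day 10 (6.67%). The lists share genes, so they are not separate evidence. Oatp58Db, moody, Gli, Tret1-1, loco and nrv2 were also among the glial markers above. So were Eaat2 and Gat of the glutamate and GABA list and speck of the amine list below.

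For e, the list of amine and beta-alanine recycling held 6 other genes on each day. On day 14, 5 of 6 lay below 0 (50.7% of all features), with a median of -0.09. On day 10, 4 of 6 did (43.5% of all features), with a median of -0.04. The gene t (tan), whose enzyme releases histamine again from the product of ebony, was at -0.21 ± 0.16 (n = 3) on day 14 and -0.08 ± 0.14 (n = 4) on day 10 (SE). Hdc, the histamine-synthesising enzyme gene, was at 0.06 ± 0.14 on day 14 and 0.23 ± 0.14 on day 10 (SE, n = 4 each). limma called 0 of these genes, with 0 at an unadjusted p under 0.05 on either day. Over all features that share was 3.98% on day 14 and 6.67% on day 10.

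Markers of other head cells were set beside these values. Fat body genes had the same median on day 14 as the glial genes beside the 4: 7 of 9 lay below 0 (50.7% of all features), with a median of -0.15. The median of the list on single arrays ran from -0.46 to 0.11, below 0 on 3 of 4. limma called 0 of the 9, and 2 had an unadjusted p under 0.05: the cytochrome P450 gene Cyp4d21 at -0.77 ± 0.18 (SE, n = 4, adjusted p = 0.71) and sxe2 at -0.67 ± 0.13 (SE, n = 4, adjusted p = 0.59), both with lower fitted values than alrm. On day 10, 4 of 12 fat body genes lay below 0 (43.5% of all features), with a median of 0.09, and single arrays ran from -0.61 to 0.09. limma called 0 of the 12, and 1 had an unadjusted p under 0.05, Cyp4d21 at -0.54 ± 0.20 (SE, n = 4, adjusted p = 0.73). Over all features, unadjusted p lay under 0.05 for 3.98% on day 14 and 6.67% on day 10. The median of the glial genes beside the 4 ran from -0.14 to -0.09 over the day 14 arrays, below 0 on 4 of 4, and from -0.12 to 0.03 over the day 10 arrays, below 0 on 3 of 4. Neuronal genes had medians of 0.02 on day 14 and 0.14 on day 10, and photoreceptor genes -0.02 and 0.04 on the same days. Muscle genes had -0.08 and -0.05, and haemocyte genes -0.07 and 0.18. The part of these cell types in the values of the 4 glial genes was not tested.

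The genes most like alrm and Gs2 over the arrays were named from Pearson's r of the log2 ratios, as a description. Against alrm, 1706 named genes had values on the same 7 arrays, and the highest r belonged to Wbp2 (0.95), the small GTPase gene Rab2 (0.91), CG1468 (0.91), CG1640 (0.91) and CG6357 (0.89). CG1468 also came closest in size, with means of -0.61 on day 14 and -0.20 on day 10. Against Gs2, 1481 genes had values on all 8 arrays, led by the poly(A)-binding protein gene pAbp (0.97), CG4364 (0.91), Msr-110 (0.85), DIP1 (0.85) and the exosome nuclease gene Rrp6 (0.84). These points share arrays and dyes, and the median r over all genes compared was 0.08 for alrm and 0.02 for Gs2. For Mdr65 and e, with values on fewer than 6 arrays, no such genes were sought.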

How the data were processed

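Per the series text, the authors read slide images in GenePix Pro 6.0 and normalised ratios in Acuity 4.0. Spots with too many saturated pixels, an R2 between channels under 0.6 or a signal-to-noise ratio under 3 were removed. Values as deposited look like log2 ratios, being signed and near 0; 2 capped at 16.6 were left out. The array's genome build is not given in the sources used here. Gene names came from the platform annotation, updated through gene IDs to RefSeq (14894 of 15116 rows naming 1 gene matched).

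Arrays were centred on their medians, which were -0.34 to 0.00 at deposit, dye-swapped arrays turned and rows of a gene averaged. The number of arrays limits the precision. All 8 arrays entered 1 limma fit (limma 3.58.1, R 4.3.3) with group means and a dye term per gene. Testing required 3 of a group's 4 arrays, and Benjamini-Hochberg adjustment covered all features tested. The fit was tested on simulated data.

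Members and lists were chosen with earlier results of these data known. Named were the 4 genes, measured glial markers, up to 3 genes of smallest p per other list, and the 5 genes of highest r.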

Additional observations from a re-analysis of the deposited data

Results flagged for a closer look

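Among 19 groups of 4 arrays checked for the glial genes, 1 had an array far from the others. The glial gene wrapper stood at 1.40 on 1 day 10 array, while the other day 10 arrays ran down to -0.31, and it had no value on day 14. Chance flags about 5% of such groups. alrm on day 10 and Gs2 on both days were checked and not flagged. alrm on day 14, Mdr65 and e had values on fewer than 4 arrays and were not checked.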

How the results depend on the processing

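Fitted values of the 4 genes kept their sign under the alternatives with 4 exceptions: Gs2 on both days, e on day 10 and alrm on day 10. Leaving arrays unturned checks the sign of alrm on day 14 and Mdr65 on day 10 only weakly. With the dye term, an unturned value largely follows the gap between the Cy5 and Cy3 arrays, and both genes were lower with treated RNA on Cy5. With swapped arrays not turned, Gs2 was at 0.051 on day 14 and 0.11 on day 10 and e on day 10 at 0.045; alrm on day 14 was at -0.24, and day 10 gave 304 calls. Without day 10 replicate 1, alrm on day 10 was at 0.025. Scaling arrays to one spread gave 39 calls on day 14, and fitting that day alone 70; alrm was then at -0.66 and -0.51 on day 14. With 1 array left out, fitted values ran from -0.55 to -0.47 for alrm and -0.28 to -0.15 for Gs2 on day 14, from -0.36 to 0.025 for alrm and -0.14 to -0.0044 for Gs2 on day 10, from -1.30 to -0.52 for Mdr65 and from -0.50 to -0.28 for e. The counts of calls then were 0 on day 14 and 0 to 1 on day 10 and in the difference. The day 14 minus day 10 difference then ran from -0.58 to -0.11 for alrm and from -0.22 to -0.09 for Gs2; with swapped arrays not turned it was -0.072 and -0.059, and with print blocks centred -0.38 and -0.046. The adjusted p of day 10 ran from 0.46 to 1.00 for alrm and from 0.59 to 1.00 for Gs2. Same-numbered arrays of the 2 days correlated at 0.06 to 0.42 in their deviations, not over 0.1 in each pair. Only day 10 replicates 2 and 3 correlated best with their own number. After the dye term the correlations of same-numbered arrays ran from -0.39 to -0.14. With the replicate block the difference was -0.29 for alrm and -0.17 for Gs2, with 0 calls. A gene needing values on all 4 arrays left no day 14 value for alrm and no day 10 value for Mdr65 or e. The causes were not tested.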
